A study of Mus musculus with 6 samples.

Results

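The genes described here are 10 zinc-handling genes of the mouse: the zinc importers Slc39a4, Slc39a1, Slc39a6, Slc39a7, Slc39a10 and Slc39a14, the zinc exporters Slc30a1 and Slc30a5, and the metallothioneins Mt1 and Mt2. They are 10 of the 52636 genes in the deposited count table, matched to it by symbol and Ensembl identifier. Slc39a4 was chosen for its higher and very even level in KLRG1-positive cells, so its values from that comparison are given as a description without a test. The others were chosen for their role in zinc handling.

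RNA was sequenced from lung innate lymphoid cells (ILCs), lymphocytes without rearranged antigen receptors, in 3 KLRG1-positive and 3 KLRG1-negative libraries. KLRG1 is an inhibitory lectin-like receptor carried by activated group 2 ILCs (ILC2). The KLRG1-positive group was labelled as ILC2, negative for lineage markers and positive for CD90; its sort is called KLRG1-high in the labels' protocols. The KLRG1-negative group was labelled as ILC with the same lineage and CD90 gates and no KLRG1. Sort purity was above 90%, per the labels' protocols. All mice, in both groups, were wild-type C57BL/6 animals with the Il4 4get reporter (green fluorescent protein), given 500 ng of recombinant interleukin-33 intraperitoneally for 4 days and killed on day 5. No group without interleukin-33 was analysed here, and the sources used here give neither the age of the mice nor the lineage panel. Whether libraries of a sort are from different mice is not stated, so a p-value here reflects only the spread among these libraries, which may be technical.

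Zinc is a structural or catalytic part of many proteins, and cells keep free zinc in the cytosol very low. ZIP proteins, encoded by the Slc39 genes, carry zinc into the cytosol from outside the cell or from organelles, and ZnT proteins, encoded by the Slc30 genes, carry it out of the cytosol. Metallothioneins are small cysteine-rich proteins that bind zinc and copper. In mammals Mt1, Mt2 and Slc30a1 are switched on by the zinc-sensing transcription factor MTF1.

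The libraries held 17323004 to 23421426 assigned counts in the KLRG1-positive and 17898268 to 23946073 in the KLRG1-negative sort. Klrg1, the gene that separates the sorts, stood at 1485, 1786 and 1327 CPM (counts per 1000000, scaled with TMM factors) in KLRG1-positive libraries 1, 2 and 3 and at 13.1, 193 and 73.2 CPM in KLRG1-negative libraries 1, 2 and 3. Thy1, which encodes the CD90 of the gate, was present in all libraries, at 34.9, 16.3 and 24.4 CPM in KLRG1-positive libraries and at 53.1, 44.8 and 25.9 CPM in KLRG1-negative ones. All 11 genes of an ILC2 marker list had positive log2 fold changes, 0 of them called, and their summed level was 6742 to 7953 CPM in the KLRG1-positive and 1635 to 3976 CPM in the KLRG1-negative libraries. All 10 fibroblast markers had negative log2 fold changes and 7 were called lower by edgeR, with a summed level of 18.3 to 52.5 CPM in KLRG1-positive libraries against 4405 to 12012 CPM in KLRG1-negative libraries. T cell markers summed to 319 to 403 CPM in KLRG1-positive libraries and 1306 to 4942 CPM in KLRG1-negative libraries, with all 9 of 10 that were tested having negative log2 fold changes and 1 called lower. B cell markers summed to 2464 to 8515 CPM in KLRG1-positive libraries and 7421 to 28953 CPM in KLRG1-negative libraries, with all 10 negative and 1 called lower. Epithelial (14.5 to 521 against 112 to 585 CPM), endothelial (95.7 to 282 against 127 to 465 CPM) and macrophage and neutrophil markers (49.5 to 303 against 105 to 370 CPM) overlapped between KLRG1-positive and KLRG1-negative libraries in their summed level, with 0 of each list called. No marker on any of these lists was at 0 throughout either sort. In such bulk samples fewer cells of a type and less RNA per cell cannot be told apart, and the part of the other cells in the results below was not tested.

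Slc39a4 was the member chosen for its difference between the sorts. It encodes ZIP4, an importer at the cell surface best known from the intestine, where its loss in humans causes the zinc deficiency acrodermatitis enteropathica. Slc39a4 (ENSMUSG00000063354, GRCm38 chr15:76612385-76616852, minus strand) stood at 119.5, 119.5 and 115 CPM in KLRG1-positive libraries 1, 2 and 3, against 25.9, 39.3 and 30.5 CPM in KLRG1-negative libraries 1, 2 and 3. The KLRG1-positive values lay close together and every one of them was far above every KLRG1-negative value. These values rest on 2123, 2238 and 2600 counts in KLRG1-positive and 466, 997 and 635 counts in KLRG1-negative libraries. The log2 fold change was 1.89 ± 0.22 (SE, n = 3 per sort), and the differences between libraries of the same replicate number were 2.20, 1.60 and 1.92 on the log2 scale. The coefficient of variation of Slc39a4 was 2.01% over the KLRG1-positive libraries and 21.3% over the KLRG1-negative ones. Of 9528 genes with a mean of at least 10 CPM, 92 varied less over the KLRG1-positive libraries, where the median coefficient of variation was 21.8%. This rank follows from the choice of Slc39a4 for its even level and is a description. No exon base of Slc39a4 overlapped another gene in the deposited gene models, and none of its 50-base stretches occurred in a transcript of another gene.

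**Figure D1:**
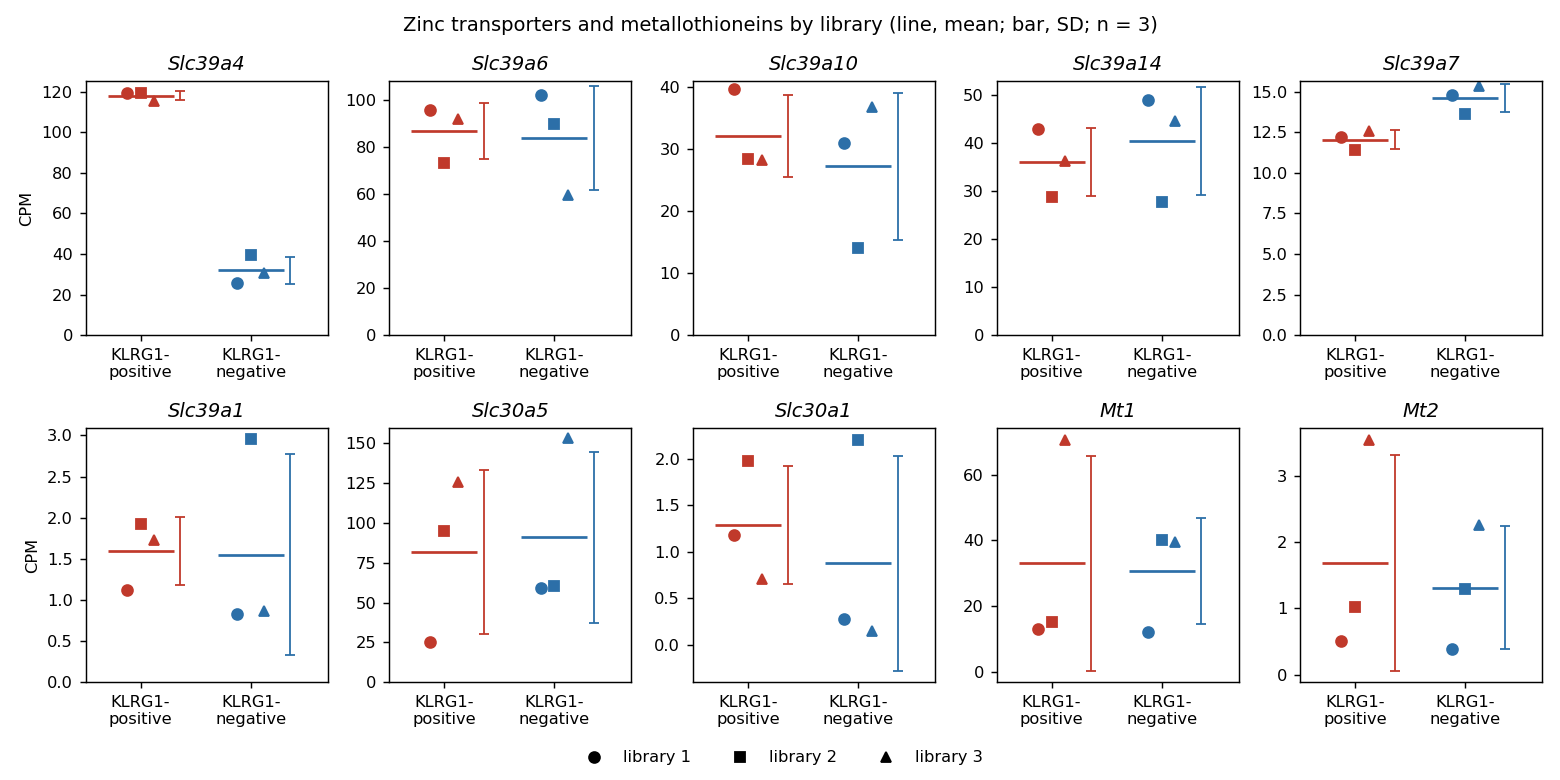
Level of each of the 10 zinc genes in CPM (y axis) in KLRG1-positive (red, left) and KLRG1-negative (blue, right) libraries; each symbol is a library, the line is the mean and the bar the SD of 3 libraries. Slc39a4 lies at 115 to 119.5 CPM in KLRG1-positive libraries and 25.9 to 39.3 CPM in KLRG1-negative libraries, while 8 of the other 9 genes overlap between the sorts.

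Set against the summed level of the 11 ILC2 markers, Slc39a4 separated the sorts less clearly. Over the 11 ILC2 markers, the mean summed level was 7215 ± 648 CPM in KLRG1-positive libraries and 2870 ± 1176 CPM in KLRG1-negative libraries (SD, n = 3 each), a 2.51-fold difference, while mean Slc39a4 differed 3.70-fold. Per 1000 CPM of ILC2 markers, Slc39a4 stood at 17.2, 15.0 and 17.1 CPM in KLRG1-positive libraries 1, 2 and 3 and at 15.9, 9.89 and 10.2 CPM in KLRG1-negative libraries 1, 2 and 3. On this ratio, which was added after seeing the data, KLRG1-negative library 1 lay within the KLRG1-positive range and the means differed 1.37-fold. The ratio depends on the markers summed. In KLRG1-negative library 1, Il7r held 803 and Icos 157 of the 1635 CPM, while Il7r held 507 to 1015 CPM of the larger sums in KLRG1-positive libraries. T cell markers were also highest in KLRG1-negative library 1, at 4942 CPM. The ratio without Il7r and Icos was not tested. Within the KLRG1-negative sort, library 2 was highest and library 1 lowest in Slc39a4, in the ILC2 markers (3976, 1635 and, for library 3, 3000 CPM) and in Klrg1.

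**Figure D2:**
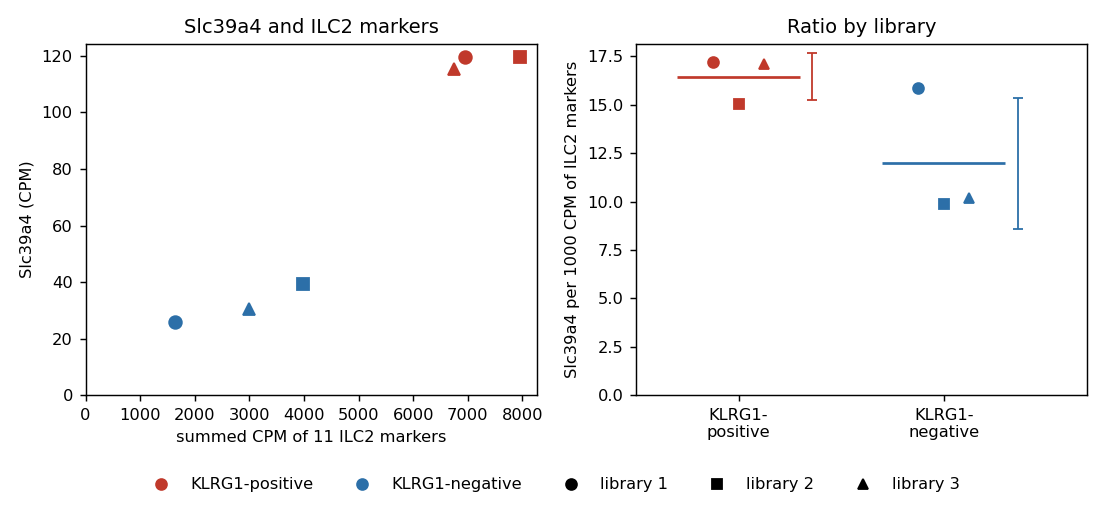
Left, Slc39a4 in CPM (y axis) against the summed CPM of 11 ILC2 markers (x axis) in KLRG1-positive (red) and KLRG1-negative (blue) libraries. Right, Slc39a4 per 1000 CPM of those markers, with the mean (line) and SD (bar, n = 3): KLRG1-positive libraries lie at 15.0 to 17.2 and KLRG1-negative libraries at 9.89 to 15.9, with KLRG1-negative library 1 inside the KLRG1-positive range.

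Per kilobase of exon, Slc39a4 had the highest level of the 14 Slc39 genes in KLRG1-positive libraries. On this scale it averaged 53.1 ± 1.07 CPM per kb in KLRG1-positive and 14.4 ± 3.06 CPM per kb in KLRG1-negative libraries (SD, n = 3 each). It made up 39.2, 39.7 and 37.7% of the summed CPM per kb of the 14 Slc39 genes in KLRG1-positive libraries 1, 2 and 3, and 11.5, 19.8 and 14.5% in KLRG1-negative libraries 1, 2 and 3. In KLRG1-positive libraries the next genes were Slc39a6 (21.3 ± 2.92 CPM per kb) and Slc39a11 (19.9 ± 2.95), which did not differ from each other beyond their spread. In KLRG1-negative libraries the means of Slc39a6 (20.6 ± 5.38 CPM per kb) and Slc39a11 (20.3 ± 5.89) were above that of Slc39a4, also within each other's spread. By library, Slc39a6 was above Slc39a4 in every KLRG1-negative library, and Slc39a11 was above it in libraries 1 and 3. In KLRG1-negative library 2 Slc39a4 (19.8% of the sum) was above Slc39a11 (15.3%). These orders depend on the length used, since Slc39a7 shares 80.1% of its exon bases with another transcript and reads there were not counted. Per kilobase of exon that no other gene model shares, a scale added after seeing the data, Slc39a7 averaged 23.4 ± 1.18 CPM per kb in KLRG1-positive libraries and 28.3 ± 1.67 CPM per kb in KLRG1-negative libraries. It then ranked 2 in KLRG1-positive libraries, where Slc39a4 still ranked 1, and 1 in KLRG1-negative libraries, where Slc39a4 ranked 4. The share of Slc39a4 was then 34.3, 34.9 and 32.9% in KLRG1-positive libraries and 9.30, 15.9 and 11.5% in KLRG1-negative libraries. These ranks and shares rest on only 516 unshared bases of Slc39a7. Reads that reach from these bases into shared ones may be missing too, so its level may still be understated. Because these are shares, a larger part for Slc39a4 lowers the part of the others.

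**Figure D3:**
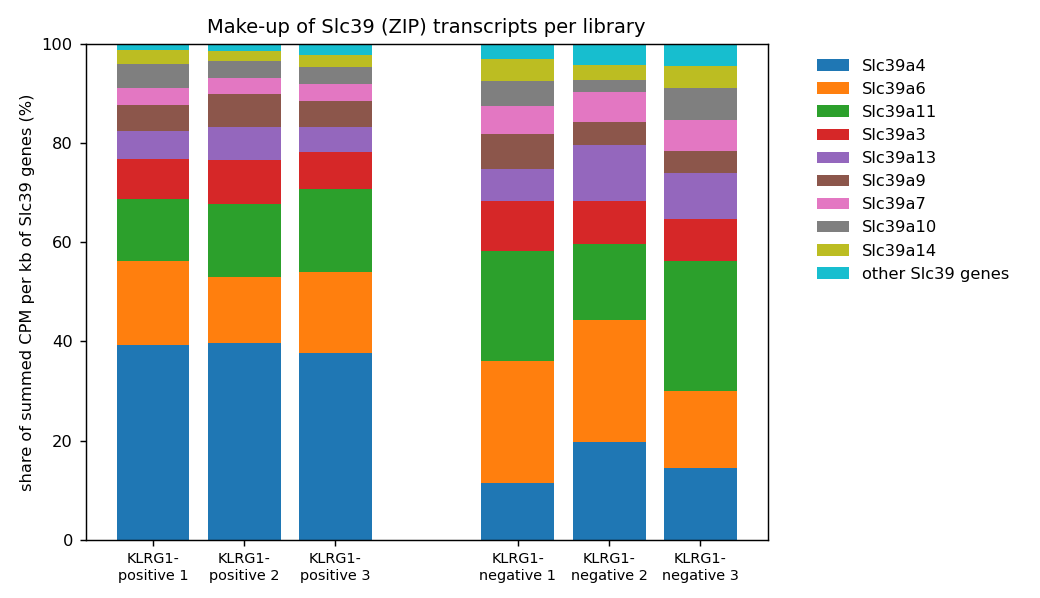
Share of each Slc39 gene in the summed CPM per kb of all 14 Slc39 genes (y axis, percent) in each library (x axis). Slc39a4, at the bottom of each bar, takes 37.7 to 39.7% in KLRG1-positive and 11.5 to 19.8% in KLRG1-negative libraries, with whole gene lengths; the level of Slc39a7 is understated on this scale.

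The 5 protein-coding genes whose log2 CPM followed Slc39a4 most closely over the 6 libraries, out of 9123 with a mean of at least 10 CPM, were Slc35b2 (Pearson r = 0.998), Emb (0.994), Osbpl3 (0.994), Sri (0.994) and Gm5127 (0.993). Slc35b2 encodes a Golgi transporter of the sulfate donor PAPS, Emb the membrane glycoprotein embigin, Osbpl3 an oxysterol-binding protein relative and Sri the calcium-binding protein sorcin. Slc35b2 averaged 189 ± 3.27 CPM in KLRG1-positive libraries and 103 ± 12.3 CPM in KLRG1-negative libraries (SD, n = 3 each). The fold difference was 1.55-fold for Sri, 2.03-fold for Emb, 2.59-fold for Osbpl3 and 3.50-fold for Gm5127. Pearson r does not depend on the size of the step between the sorts, which for Slc39a4 was 3.70-fold and for Slc35b2 1.83-fold, and the 6 libraries form 2 clusters.

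None of the other 9 genes passed the test between the sorts. By edgeR's quasi-likelihood test with Benjamini-Hochberg adjustment over 15197 tested genes, 0 of the 9 passed upward and 0 downward at an adjusted p under 0.05, 0 reached an unadjusted p under 0.05, and DESeq2 called 0. Over all tested genes, 0.125% were called higher, 1.21% lower and 1.34% in either direction, and 15.7% had an unadjusted p under 0.05. The counts behind these shares, 19 higher and 184 lower, were 5 and 159 without KLRG1-positive library 1, 3 and 91 without KLRG1-negative library 1, and 0 higher with 0 to 4 lower without any other single library. With the replicate number as a block, edgeR called 0 genes higher and 53 lower, or 0.349%, over all genes, and DESeq2 called 1.91% higher and 8.79% lower of 18307 genes. All 9 passed the filter on low counts, Slc30a1 and Mt2 with fewer than 3 KLRG1-negative libraries at its cutoff; 6 had positive and 3 negative log2 fold changes, and their median log2 fold change was 0.05, against -0.05 over all tested genes. The groups did not overlap for 1 of the 9, Slc39a7, with the KLRG1-positive libraries below; of all tested genes, 24.6% did not overlap, 9.46% with the KLRG1-positive libraries above and 15.2% with them below.

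**Figure D4:**
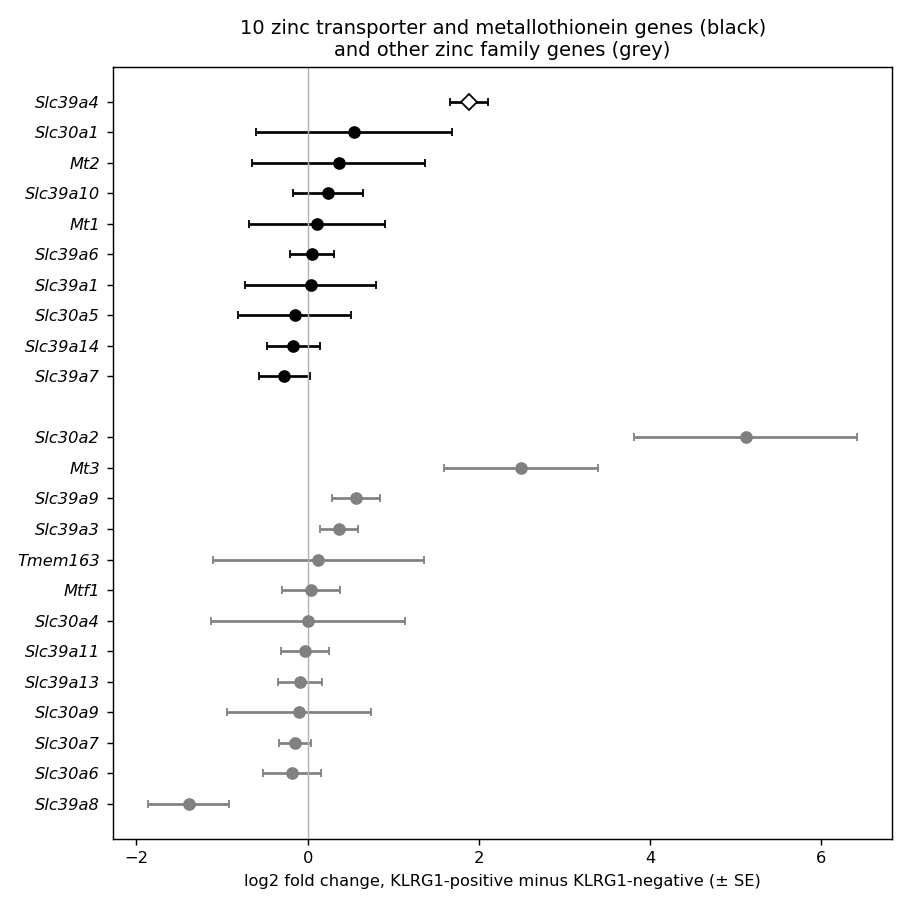
Log2 fold change, KLRG1-positive minus KLRG1-negative, with its SE (x axis) for the 10 zinc genes (black) and for the other zinc family genes that passed the filter on low counts (grey). The open diamond marks Slc39a4, at 1.89, which was chosen from this comparison; the other 9 black points lie between -0.28 and 0.54.

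Slc39a6 and Slc39a10 encode ZIP6 and ZIP10, closely related importers at the cell surface. Slc39a6 (chr18:24579881-24603817) stood at 95.6, 73.3 and 91.6 CPM in KLRG1-positive libraries and at 102, 89.5 and 59.5 CPM in KLRG1-negative libraries. The KLRG1-positive values fell inside the KLRG1-negative range, and the log2 fold change was 0.05 ± 0.26 (SE; 95% interval -0.57 to 0.68, edgeR adjusted p = 0.967). Slc39a10 (chr1:46807544-46892852) stood at 39.6, 28.3 and 28.2 CPM in KLRG1-positive libraries and at 30.9, 14.0 and 36.8 CPM in KLRG1-negative libraries. KLRG1-negative library 2 was the lowest for Slc39a10, and the other 5 libraries overlapped. Its log2 fold change was 0.24 ± 0.41 (95% interval -0.76 to 1.23, edgeR adjusted p = 0.874).

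Slc39a14 encodes ZIP14, an importer of zinc, iron and manganese that rises in the liver during inflammation. Slc39a14 (chr14:70303469-70351425) stood at 42.8, 28.7 and 36.3 CPM in KLRG1-positive libraries and at 49.0, 27.6 and 44.5 CPM in KLRG1-negative libraries. In each sort library 1 was the highest and library 2 the lowest, and the log2 fold change was -0.17 ± 0.31 (SE; 95% interval -0.91 to 0.58, edgeR adjusted p = 0.879). A difference of the size seen for Slc39a4 lay outside the intervals of Slc39a6, Slc39a10 and Slc39a14.

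Slc39a7 encodes ZIP7, which releases zinc from the endoplasmic reticulum and Golgi. Slc39a7 (chr17:34028267-34031690) stood at 12.2, 11.4 and 12.6 CPM in KLRG1-positive libraries and at 14.8, 13.6 and 15.3 CPM in KLRG1-negative libraries. All KLRG1-positive libraries lay below all KLRG1-negative ones, and the differences between libraries of the same number were -0.27, -0.26 and -0.29 on the log2 scale. The log2 fold change was -0.28 ± 0.30 (SE; 95% interval -0.99 to 0.44), which did not pass (edgeR adjusted p = 0.764). Of the exon bases of Slc39a7, 80.1% also belonged to the overlapping transcript Gm20427, and reads there were left out as ambiguous, so its level is understated.

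Slc39a1 encodes ZIP1, a widely expressed importer at the cell surface, and was barely measured here. It stood at 1.13, 1.92 and 1.73 CPM in KLRG1-positive libraries, on 20, 36 and 39 counts, and at 0.834, 2.96 and 0.865 CPM in KLRG1-negative libraries, on 15, 75 and 18 counts. The KLRG1-positive values fell inside the KLRG1-negative range (log2 fold change 0.03 ± 0.76, 95% interval -1.81 to 1.88, edgeR adjusted p = 0.992), an interval that spans differences close to that of Slc39a4 in either direction. Of the 50-base stretches in Slc39a1 transcripts (chr3:90248172-90253612), 21.8% also occurred in its pseudogene Slc39a1-ps, and reads that map to several places were left out of the counts.

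Slc30a5 encodes ZnT5, which loads zinc into the Golgi and secretory pathway together with ZnT6. Slc30a5 (chr13:100802648-100833427) stood at 25.0, 94.9 and 126 CPM in KLRG1-positive libraries 1, 2 and 3 and at 59.3, 60.7 and 153 CPM in KLRG1-negative libraries 1, 2 and 3. Library 3 was the highest and library 1 the lowest in each sort, the groups overlapped, and the log2 fold change was -0.15 ± 0.66 (SE; 95% interval -1.75 to 1.44, edgeR adjusted p = 0.961). Its partner Slc30a6 stood at 47.8, 24.6 and 35.6 CPM in KLRG1-positive libraries and at 37.3, 32.0 and 53.4 CPM in KLRG1-negative libraries. Slc30a6 overlapped between the sorts as well, and its lowest library was library 2 in each.

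Slc30a1 encodes ZnT1, the exporter at the cell surface. Slc30a1 (chr1:191906767-191913247) stood at 1.18, 1.98 and 0.710 CPM in KLRG1-positive libraries, on 21, 37 and 16 counts, and at 0.278, 2.21 and 0.144 CPM in KLRG1-negative libraries, on 5, 56 and 3 counts. KLRG1-negative library 2 was the highest of the 6 libraries for Slc30a1, while KLRG1-negative libraries 1 and 3 were the lowest. The log2 fold change was 0.54 ± 1.14 (SE; 95% interval -2.22 to 3.31, edgeR adjusted p = 0.899), a span too wide to tell a large difference from none at this depth. Without KLRG1-negative library 2 the value was 2.67. That library was the only KLRG1-negative one at the cutoff of the filter on low counts. The value without it is therefore a description and not evidence of a difference.

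Mt1 and Mt2 are neighbouring genes, 94179082 to 94180327 and 94172664 to 94173568 on chromosome 8, and encode the metallothioneins found in most tissues. Mt1 stood at 13.1, 15.1 and 70.7 CPM in KLRG1-positive libraries 1, 2 and 3 and at 12.1, 40.2 and 39.6 CPM in KLRG1-negative libraries 1, 2 and 3. Mt2 stood at 0.507, 1.01 and 3.55 CPM in KLRG1-positive libraries, on 9, 19 and 80 counts, and at 0.389, 1.30 and 2.26 CPM in KLRG1-negative libraries, on 7, 33 and 47 counts. For each of the genes KLRG1-positive library 3 was the highest and KLRG1-negative library 1 the lowest, and the sorts overlapped. The log2 fold change was 0.11 ± 0.80 for Mt1 (SE; 95% interval -1.83 to 2.04, edgeR adjusted p = 0.976) and 0.36 ± 1.01 for Mt2 (95% interval -2.09 to 2.81, edgeR adjusted p = 0.927). With the replicate number as a block the value of Mt1 was -0.14, and without KLRG1-positive library 3 it was -0.99.

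The ratio of Mt1 to Mt2 counts was 25.9, 14.9 and 19.9 in KLRG1-positive libraries 1, 2 and 3 and 31.1, 30.9 and 17.6 in KLRG1-negative libraries 1, 2 and 3. Of the exon bases of Mt2, 73.5% also belonged to Gm45774, an antisense transcript, and reads there were left out as ambiguous because the counting did not use strand. Gm45774 itself had 0, 5 and 9 counts in KLRG1-positive and 0, 15 and 9 counts in KLRG1-negative libraries. Mt2 is therefore understated, and no exon base of Mt1 was shared in this way. Per kilobase Mt1 averaged 26.5 ± 26.2 CPM per kb in KLRG1-positive and 24.6 ± 12.9 CPM per kb in KLRG1-negative libraries (SD, n = 3 each).

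The promoters of Mt1, Mt2 and Slc30a1 are shown because these genes are the textbook targets of MTF1, and because Mt1 and Mt2 had the same highest and lowest library. The windows, from RefSeq on GRCm38.p6, run 5′ to 3′ on the gene's strand from 250 bases before the annotated start to 50 bases after it. Capitals mark matches to the core of the metal response element, searched as TGCACNC and TGCGCNC on either strand.
Mt1 (chr8:94178839-94179138, plus strand): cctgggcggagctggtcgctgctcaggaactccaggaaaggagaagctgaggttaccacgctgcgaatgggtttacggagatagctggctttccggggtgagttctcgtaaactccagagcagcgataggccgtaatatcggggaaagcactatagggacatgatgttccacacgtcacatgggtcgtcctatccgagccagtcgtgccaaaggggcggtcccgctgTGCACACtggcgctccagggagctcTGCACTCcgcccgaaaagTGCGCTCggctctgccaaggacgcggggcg
Mt2 (chr8:94172368-94172667, plus strand): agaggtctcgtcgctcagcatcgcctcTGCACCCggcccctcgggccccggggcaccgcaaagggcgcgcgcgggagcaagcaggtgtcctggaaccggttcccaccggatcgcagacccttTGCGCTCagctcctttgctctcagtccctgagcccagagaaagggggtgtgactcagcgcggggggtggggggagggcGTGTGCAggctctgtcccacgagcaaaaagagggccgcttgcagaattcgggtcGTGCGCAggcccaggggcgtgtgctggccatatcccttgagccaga
Slc30a1 (chr1:191906531-191906830, plus strand): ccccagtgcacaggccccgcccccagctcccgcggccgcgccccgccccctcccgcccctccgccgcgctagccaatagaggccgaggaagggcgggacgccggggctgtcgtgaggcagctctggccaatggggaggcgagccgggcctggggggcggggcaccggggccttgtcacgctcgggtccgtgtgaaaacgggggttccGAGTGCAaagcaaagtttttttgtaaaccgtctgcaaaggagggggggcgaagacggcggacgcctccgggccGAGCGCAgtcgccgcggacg

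The Mt1 window held 3 matches, the Mt2 window 4 and the Slc30a1 window 2. Of 32841 promoter windows of 300 bases, 25.7% held at least 1 match, 7.12% at least 2, 1.97% at least 3 and 0.518% at least 4. Windows were at hand for 7 of the 10 genes. Slc30a5 held 1 match, and the windows of Slc39a1, Slc39a7 and Slc39a10 held none of these letters. A match describes letters in the window, not a bound site. Mtf1, which encodes the factor, stood at 32.8, 30.4 and 35.2 CPM in KLRG1-positive libraries and at 43.6, 19.2 and 33.2 CPM in KLRG1-negative libraries, and its groups overlapped (log2 fold change 0.04 ± 0.34, edgeR adjusted p = 0.982).

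On the log2 scale, KLRG1-positive minus KLRG1-negative libraries of numbers 1, 2 and 3 differed by -0.19, 0.06 and -0.29 for Slc39a14. For Mt2 these differences were 0.31, -0.30 and 0.63. Libraries of the same number lay further apart for Mt1 (0.11, -1.40 and 0.83) and Slc30a5 (-1.24, 0.64 and -0.28). The replicate number held more of the variation between libraries than the sort did for 8 of the 10, against 63.1% of all tested genes, and 3 numbers can take up more of it than 2 sorts. Of the sum of squares of log2 CPM over the 6 libraries, the replicate number held 95.2% for Mt2, 89.1% for Slc39a14, 77.0% for Slc30a5 and 76.0% for Mt1, against a median of 43.9% over all tested genes, and the sort held at most 5.28% for each of these genes, against a median of 21.4%. Of all tested genes, 1.47% had a larger share for the number than Mt2 and 17.0% a larger one than Mt1. Slc39a4 and Slc39a7 were the opposite, with 96.8% and 81.3% of the sum of squares between the sorts; the share of Slc39a4 follows from how it was chosen. Summed epithelial markers were also highest in library 1 of each sort, at 521, 14.5 and 14.9 CPM in KLRG1-positive libraries 1, 2 and 3 and at 585, 112 and 113 CPM in KLRG1-negative libraries 1, 2 and 3. Summed endothelial markers were highest there too, at 282, 158 and 95.7 CPM in KLRG1-positive libraries against 465, 127 and 237 CPM in KLRG1-negative libraries. Library 1 of each sort was the lowest of its sort for Mt1, Mt2 and Slc30a5, and the part of these other cells in that was not tested. The labels do not say what the numbers stand for, and these shares are descriptions without a test.

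**Figure D5:**
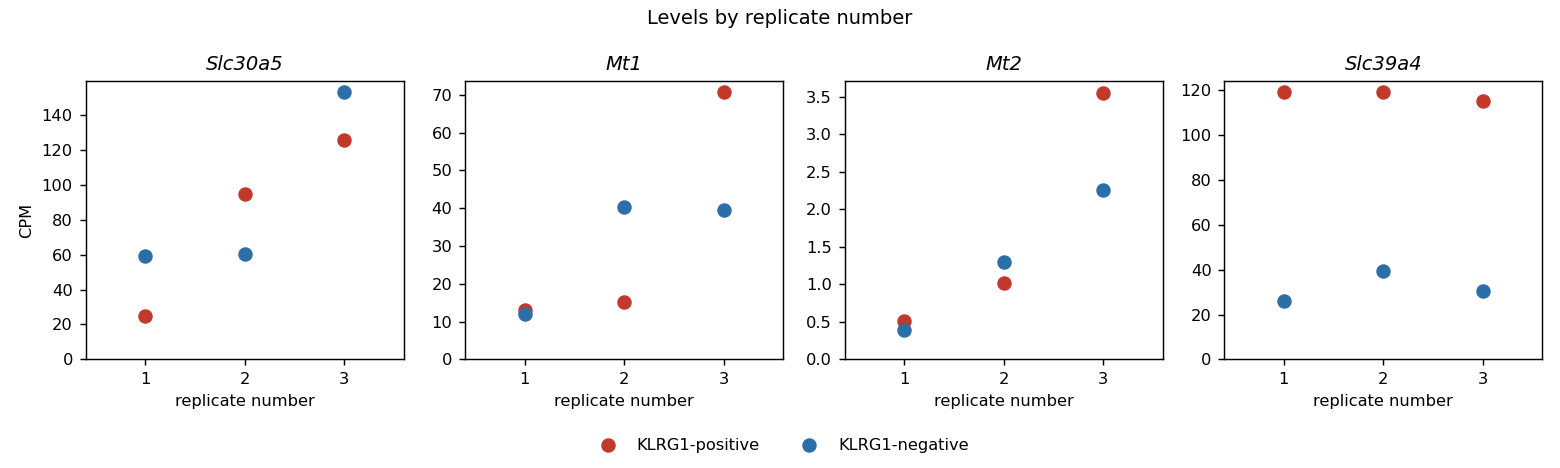
Levels of Slc30a5, Mt1, Mt2 and Slc39a4 in CPM (y axis) by replicate number (x axis; the numbers have no order) in KLRG1-positive (red) and KLRG1-negative (blue) libraries. Mt2 lies at 0.507 (KLRG1-positive) and 0.389 (KLRG1-negative) CPM for number 1 and at 3.55 (KLRG1-positive) and 2.26 (KLRG1-negative) CPM for number 3, while Slc39a4 is separated by sort at every number.

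A list of 20 other zinc genes held the rest of the Slc39, Slc30 and metallothionein genes, Mtf1 and the vesicular zinc transporter gene Tmem163. Of them, 13 passed the filter on low counts and 0 passed the test in either direction (edgeR; at an unadjusted p under 0.05 there were 2 upward and 1 downward, against 15.7% of all tested genes in either direction, while DESeq2 called Slc30a2 higher and Slc39a8 lower, against 1.91% and 8.79%). Their median log2 fold change was 0.00237, against -0.05 over all tested genes. Slc30a2, Slc30a4 and Mt3 reached the cutoff of the filter in all 3 KLRG1-positive libraries and in fewer KLRG1-negative ones. The 2 upward genes at an unadjusted p under 0.05 were Slc30a2 and Mt3. That count and the DESeq2 call of Slc30a2 are therefore descriptions and not evidence of a difference. Averaged over both sorts, the most abundant were Slc30a7, which encodes a Golgi transporter, and Slc39a11. Slc30a7 averaged 77.4 ± 4.33 CPM in KLRG1-positive libraries and 85.8 ± 12.3 CPM in KLRG1-negative libraries (SD, n = 3 each; edgeR adjusted p = 0.812). Slc39a11 averaged 66.9 ± 9.93 CPM in KLRG1-positive libraries and 68.4 ± 19.8 CPM in KLRG1-negative libraries (edgeR adjusted p = 0.982). Slc39a9 stood at 74.7, 90.6 and 71.1 CPM in KLRG1-positive libraries, where its mean was above that of Slc30a7, and at 73.2, 43.8 and 43.2 CPM in KLRG1-negative libraries (edgeR adjusted p = 0.417). Slc30a3, Slc30a8, Slc30a10 and Mt4 had no count in any library; over a sort, 3 counts, the limit that a count of 0 allows, correspond to 0.0508 CPM in KLRG1-positive libraries and 0.0468 CPM in KLRG1-negative libraries.

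Apart from Slc30a7 and Slc39a11, the genes of this list named with values, Slc30a6, Slc39a9 and Mtf1 included, were chosen after their values were seen. Slc30a2, which encodes a vesicular exporter known from the mammary gland, stood at 1.63, 1.12 and 1.15 CPM in KLRG1-positive libraries, on 29, 21 and 26 counts, and had 0, 0 and 2 counts in KLRG1-negative libraries. Every KLRG1-positive library was above every KLRG1-negative one, and the ratio of 76 to 2 counts, scaled to depth, was 41.3 with a 95% counting interval of 11.05 to 347. That interval pools the counts of each sort and leaves out the spread between libraries, so it is no test between the sorts. In edgeR Slc30a2 did not pass (adjusted p = 0.117). Since Slc30a2 passed the filter on low counts through KLRG1-positive libraries alone, its values are given as a description; of all tested genes, 9.46% had the KLRG1-positive libraries above. Mt3, a metallothionein best known from brain and the neighbour of Mt2, stood at 1.35, 1.12 and 2.35 CPM in KLRG1-positive libraries and at 0.111, 0.158 and 0.577 CPM in KLRG1-negative libraries. These levels rest on 24, 21 and 53 counts in KLRG1-positive and 2, 4 and 12 counts in KLRG1-negative libraries, so KLRG1-negative library 3 holds most of the counts of its sort. The KLRG1-positive values lay above the KLRG1-negative ones, and they too are a description.

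Slc39a8, which encodes ZIP8, an importer of zinc and manganese and the closest relative of ZIP14, stood at 8.05, 4.70 and 13.1 CPM in KLRG1-positive libraries and at 19.2, 19.5 and 29.3 CPM in KLRG1-negative libraries. All KLRG1-positive libraries lay below all KLRG1-negative ones, and the log2 fold change of -1.39 ± 0.47 (SE) did not pass in edgeR (adjusted p = 0.217) and passed in DESeq2 (adjusted p = 0.0393). Fibroblast, T cell and B cell markers that were tested also had negative log2 fold changes, with the summed levels given above. The part of those cells in Slc39a8 was not tested. Slc39a3, which encodes the importer ZIP3, stood at 45.2, 48.1 and 41.6 CPM in KLRG1-positive libraries and at 41.1, 30.9 and 32.8 CPM in KLRG1-negative libraries (log2 fold change 0.36 ± 0.22, edgeR adjusted p = 0.530). Its KLRG1-positive values all lay above the KLRG1-negative ones, library 1 of the KLRG1-negative sort only just below.

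Among 22 genes of iron and copper handling, set beside the zinc genes for comparison, 21 were tested, with 0 called higher and 1 called lower in the KLRG1-positive sort (edgeR; median log2 fold change -0.03; of all tested genes, 0.125% were called higher and 1.21% lower). That gene was Steap3, which encodes a ferrireductase of endosomes, at 1.58, 0.855 and 0.843 CPM in KLRG1-positive libraries and at 12.9, 14.2 and 18.4 CPM in KLRG1-negative libraries (log2 fold change -3.79 ± 0.49, edgeR adjusted p = 0.0365). Fibroblast, T cell and B cell markers that were tested also had negative log2 fold changes, and the part of those cells in Steap3 was not tested. With the replicate number as a block Steap3 did not pass (edgeR adjusted p = 0.0786), nor when any 1 library other than KLRG1-positive library 1 was left out (0.0643 to 0.152). DESeq2 called 0 of the iron and copper genes higher and 2 lower, against 1.91% and 8.79% of 18307 genes.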

How the data were processed

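RNA from 3 KLRG1-positive and 3 KLRG1-negative sorts of lung ILCs was amplified (SMARTer low-input kit) and made into Nextera XT libraries, which do not mark strand, per the labels' protocols. The authors deposited raw counts of reads per gene, made with featureCounts 1.5.2 without strand on Ensembl release 90 models of GRCm38, per the file headers; reads assigned to no single gene, among them multi-mapping ones (26.3 to 32.3% of alignments), are not in them. STAR 2.4.1d is named in the submitters' processing notes. The gene length column, another value per the file headers and summed over exons, entered only the levels per kilobase.

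Symbols came from GENCODE M21, the same build, in which 52489 of 52636 identifiers were found. Counts were tested with edgeR 4.0.16 (R 4.3.3; robust quasi-likelihood F test, TMM, filterByExpr by group, 15197 genes kept), two-sided, with Benjamini-Hochberg adjustment over all tested genes and a threshold of 0.05. SEs derive from the F statistic, and 95% intervals use the t distribution of that fit. CPM use TMM-scaled library sizes. Counting intervals (95%, exact conditional binomial) and floors of 3 counts reflect counting error alone, because PCR copies of a molecule were counted separately. DESeq2 1.42.0 was an alternative, and the edgeR fit was tested on simulated data.

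The members and lists were chosen with earlier results of these data known. Named were the 10 members, the genes of each list that passed or else its 2 most abundant, and the 5 genes most correlated with Slc39a4 in log2 CPM (prior count 2) among protein-coding genes of at least 10 CPM, with Klrg1 and Thy1 as checks of the sort. Slc30a2, Slc30a6, Mt3, Slc39a3, Slc39a8, Slc39a9 and Mtf1 fall outside this rule and were chosen after their values were seen. Replicate numbers come from the labels. Across genes, deviations of same-numbered libraries from their sort means correlated at 0.38, 0.333 and 0.183 for numbers 1, 2 and 3. Those of differently numbered libraries lay between -0.312 and 0.0586. Libraries with the same number were therefore read as pairs, from the data and not from the labels. With 3 libraries per sort these correlations depend on each other, and the pairing was not tested. The main fit, with its fold changes, intervals and adjusted p-values, did not use these pairs. Pairing entered the tests through the replicate block, which is an alternative.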

Additional observations from a re-analysis of the deposited data

How the results depend on the processing

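The count of the 9 members other than Slc39a4 called in either direction was 0 in the main fit and under all 16 alternatives. Slc39a4 kept a positive log2 fold change, between 1.76 and 2.18 over the 16; the highest was without KLRG1-negative library 2, and per summed ILC2 markers, added after seeing the data, the value was 0.46. Per exon base of no other gene, also added then, its mean share of summed Slc39 levels was 34.0% in KLRG1-positive libraries (main 38.9%) and 12.2% in KLRG1-negative libraries (main 15.2%). With the replicate block, edgeR called 0 genes higher and 53 lower over all genes, and 0 iron and copper genes lower. Without a filter on low counts it called 37 higher and 282 lower. DESeq2 called 350 higher and 1609 lower, 1 other zinc family gene higher and 1 lower, and 2 iron and copper genes lower. The zinc family gene called higher was Slc30a2, whose values are a description, as stated above. Without 1 library, 0 to 5 genes were called higher, 0 to 159 lower, and 0 to 1 iron and copper genes lower; without both libraries of a number, 0 to 3 higher, 0 to 168 lower and 0 iron and copper genes. The DESeq2 size factors in edgeR, library size only, the 10-count filter and non-robust dispersion moved no count by over 1.5 times. Genes near 0 changed sign: Slc39a1 with library size only (-0.031), Mt1 with the replicate block (-0.14), and Slc39a11 without the filter (0.074) and with the block (0.0036). Without 1 library, log2 fold changes ranged from -0.25 to 1.00 for Slc39a1, -0.13 to 0.23 for Slc39a6, -0.30 to 0.0024 for Slc39a14, -0.47 to 0.46 for Slc30a5, -0.99 to 0.50 for Mt1, -0.65 to 1.00 for Mt2, -0.15 to 0.15 for Slc39a11 and -0.13 to 0.33 for Mtf1. Signs also changed without both libraries numbered 1 for Slc39a1 (-0.070), Slc30a5 (0.061) and Slc39a11 (0.17), numbered 2 for Mtf1 (-0.082) and numbered 3 for Slc39a1 (-0.23), Slc39a6 (-0.10), Slc30a5 (0.073), Mt1 (-0.80), Mt2 (-0.072) and Slc39a11 (0.10). For the results that moved, the cause was not tested. Counts under 100 per library limit Slc39a1, Slc30a1 and Mt2. The block changed no other call on the genes named.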
